A study of Mus musculus with 6 samples.

Results

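The transcripts described here belong to 34 genes of glucose breakdown and the pentose phosphate pathway. They were chosen by name from the textbook pathway, with earlier results of these data known. The list holds transporters that let glucose in and lactate out, and many but not all isoforms of the glycolytic enzymes. It also holds enzymes that settle the fate of pyruvate, the 7 pentose phosphate enzymes, and Bnip3, a mitochondrial receptor for mitophagy. All 34 are among the 55416 genes counted, and all 34 had enough counts to be tested, beside 14926 genes tested in all. The lowest count of any of them in any library was 37.

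The libraries hold RNA from CD3+ T cells of the spleen of wild-type (labelled WT) C57BL/6 mice that had received a graft. Isograft recipients, whose graft matched their own genotype, gave 3 libraries, and allograft recipients, whose graft came from a donor of another genotype, gave 3 more. In both groups the cells were kept in 1640 medium with 10% fetal bovine serum and antibiotics at 37 °C and 5% CO2, TRIzol served to take the RNA, and a SMARTER mRNA kit to prepare it for sequencing. No label names the organ grafted, the strain of the donor, the age of the mice, or how long after grafting and after how much culture the RNA was taken. Separate mice per library are not stated either, and p-values may therefore reflect technical spread between the 3 libraries of a group.

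Glycolysis splits glucose into pyruvate in the cytosol, and most of its steps can be run by any of several isoforms, which are separate genes whose proteins differ in kinetics, regulation and the tissues that use them. Pyruvate is then reduced to lactate and exported, or oxidised in the mitochondria. The pentose phosphate pathway draws glucose 6-phosphate off to make NADPH and ribose for nucleotides. Resting T cells rely mostly on mitochondrial oxidation, and activated T cells are known for taking up more glucose and secreting lactate even where oxygen is present.

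Library totals ran from 30066137 to 37821738 counts. Levels are in CPM, the count scaled to a common library size, here after TMM scaling, which corrects for a few abundant genes taking up a library. The unit CPM per kb, which also divides by a gene's exon length, is used wherever the levels of 2 genes are compared. That length joins all annotated exons of a gene, and can exceed the length of its main transcript. Shares and orders per length depend on this choice, and main-transcript lengths were not tried. The markers of T cells (10 genes) summed to 1938 to 2018 CPM in isograft and 1486 to 1589 CPM in allograft libraries, and 2 of them rose and 5 fell. The label names CD3+ cells, but 10 markers of B cells were also present, of which 3 rose and 5 fell. They summed to 1367 to 1475 CPM in isograft and 1306 to 1416 CPM in allograft libraries. Over all genes tested, 28.7% rose and 29.1% fell. Markers of macrophages and monocytes, neutrophils, erythroid cells and NK cells summed to at most 112 CPM in any library. Those of dendritic cells summed to 31.8 to 33.8 CPM in isograft and 74.1 to 79.1 CPM in allograft libraries, and Zbtb46 was the 1 of their 5 tested genes that rose. The part of other cell types in the results below was not tested. In bulk RNA, fewer cells of a type and less RNA per cell cannot be told apart.

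In allograft libraries the pathway was mostly higher, and the isoforms of a step often moved in opposite directions. Of the 34 genes, 22 rose and 7 fell at an adjusted p under 0.05 (edgeR's quasi-likelihood test, Benjamini-Hochberg over all genes tested), and 5 were not called. The background was wide: 57.8% of all genes tested were called, 28.7% as rising and 29.1% as falling. The 22 that rose are 64.7% of the members and the 7 that fell are 20.6%. The members' median log2 fold change (allograft minus isograft) was 0.51, against -0.01 over all genes tested. At least 2-fold rises were seen in 7 members, where 10.1% of all genes rose that far, and 2 fell at least 2-fold, where 10.1% of all genes did. The libraries of the 2 groups did not overlap for 30 members, 23 of them higher and 7 lower in allograft, against 63.3% of all genes tested that did not overlap. With libraries scaled by their totals alone, the median of all genes shifted by -0.22 and the calls over all genes moved from 4283 rising and 4349 falling to 2975 (19.9%) and 6091 (40.8%). The members' median was then 0.29, and 32 of 34 members kept their call and direction.

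**Figure D1:**
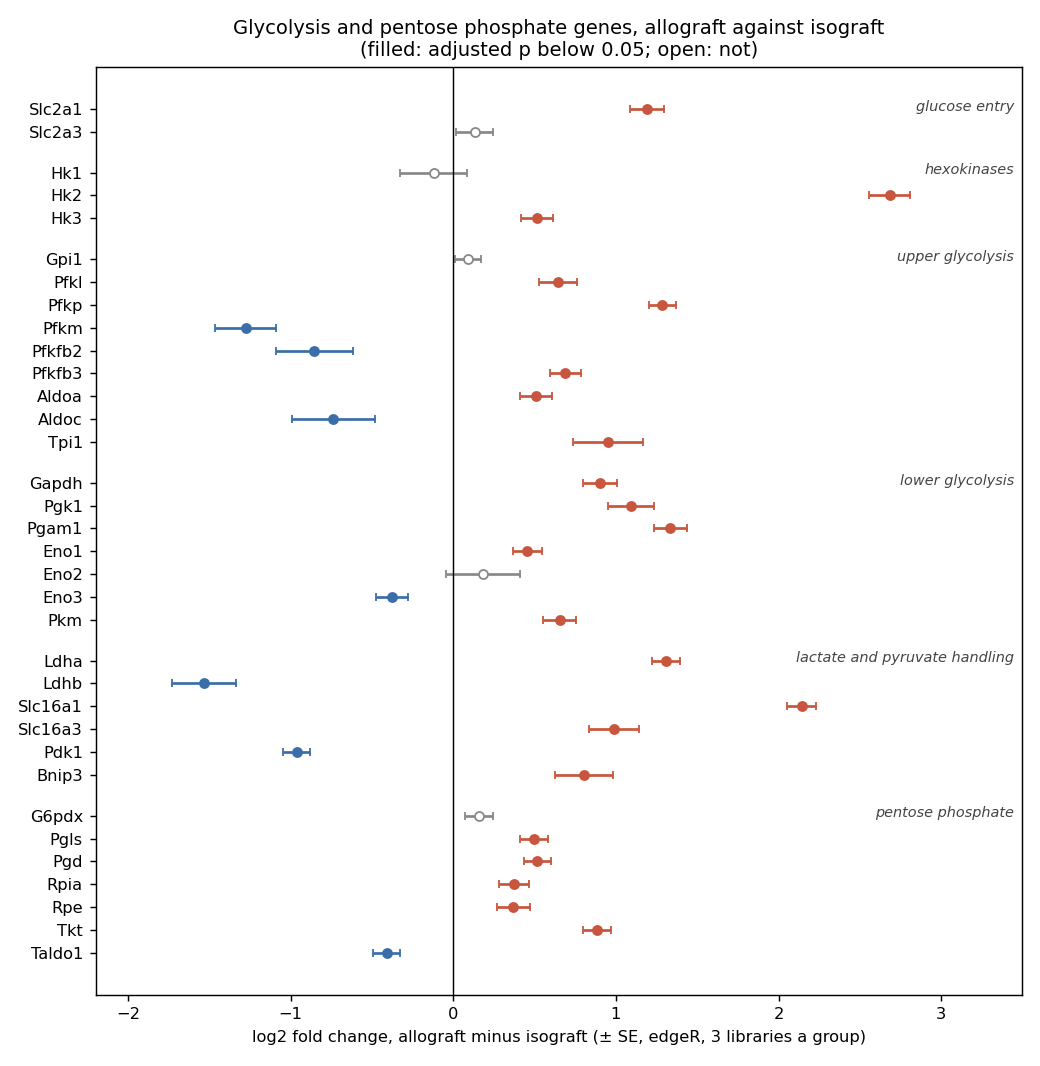
Log2 fold change of each of the 34 genes, allograft minus isograft, with its standard error, grouped by role in the pathway; filled points have an adjusted p under 0.05 and open points do not. Hk2 and Slc16a1 lie farthest to the right at 2.68 and 2.14, Ldhb and Pfkm farthest to the left at -1.53 and -1.28.

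Of the glucose transporters, Slc2a1 rose and Slc2a3 was not called. Slc2a1 encodes GLUT1, the transporter that activated T cells are known to place on their surface. It stood at 21.2, 18.04 and 23.6 CPM in the isograft libraries and at 52.5, 46.4 and 44.2 CPM in the allograft libraries. Every allograft library lay above every isograft library, and the rise was 2.28-fold (log2 fold change 1.19 ± 0.10 SE, edgeR adjusted p 6.92e-09). Slc2a3 encodes GLUT3, a transporter of high affinity best known from neurons. Its values were 36.8, 28.7 and 34.7 CPM in isograft and 41.1, 30.3 and 38.3 CPM in allograft libraries, which overlap (log2 fold change 0.13 ± 0.11, edgeR adjusted p 0.342). Per length, Slc2a1 was 56.4% ± 1.97 (SD, n = 3) of the 2 transporters' summed level in isograft and 73.0% ± 2.78 in allograft libraries.

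The hexokinases, which trap glucose in the cell as glucose 6-phosphate, changed rank. Hk2, the inducible isoform that binds mitochondria, gave 26.9, 21.8 and 33.2 CPM in isograft and 184.8, 175.5 and 164.6 CPM in allograft libraries. The lowest allograft library was far above the highest isograft library, and the rise of 6.42-fold was the largest of the 34 genes (27.3 ± 5.70 to 175 ± 10.1 CPM, log2 fold change 2.68 ± 0.12, edgeR adjusted p 6.23e-10). Hk1, the constitutive isoform, gave 95.8, 127 and 143 CPM in isograft and 139.8, 96.4 and 100.2 CPM in allograft libraries. Its 2 groups were spread over much the same range and it was not called (log2 fold change -0.12 ± 0.21, edgeR adjusted p 0.658). Hk3, an isoform best known from myeloid cells, stood at 22.8, 20.6 and 22.4 CPM against 33.5, 32.4 and 28.0 CPM and rose 1.43-fold without overlap (edgeR adjusted p 0.000137).

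Per length, Hk1 made up 57.3% ± 5.45 (SD, n = 3) of hexokinase transcripts in isograft libraries and 25.6% ± 3.14 in allograft libraries. Hk2 went from 18.4% ± 2.88 to 57.7% ± 2.45. By these shares, the isoform with the smallest share in the isograft group had the largest in the allograft group. The shares rest on exon lengths of 8532 bases for Hk1 and 5969 for Hk2. Their main transcripts have 3851 and 5513 bases, and with those the share of Hk1 would be larger. Hk3 held 24.3% ± 3.56 and 16.7% ± 0.936, a lower share although its own level rose. Among the 34 genes ordered by group mean CPM per kb, Hk2 moved from place 27 in isograft libraries (4.58 ± 0.955) to place 10 in allograft libraries (29.3 ± 1.70).

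Upper glycolysis, from glucose 6-phosphate to the 3-carbon sugars, had 5 of 9 genes that rose, 3 that fell and 1 that was not called. Over all genes tested the shares were 28.7% rising and 29.1% falling. The one not called was Gpi1, the isomerase that makes fructose 6-phosphate, which was already abundant. It stood at 357, 319 and 389.8 CPM in isograft and 396, 358 and 379.98 CPM in allograft libraries (log2 fold change 0.09 ± 0.08, edgeR adjusted p 0.335).

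Phosphofructokinase is the committed step of glycolysis, run by tetramers of the liver-type (Pfkl), platelet-type (Pfkp) and muscle-type (Pfkm) subunits. Pfkp gave 252, 223 and 289.6 CPM in isograft and 618, 629 and 617 CPM in allograft libraries. The 3 allograft values lie close together and well above the others, a rise of 2.44-fold (log2 fold change 1.29 ± 0.08, edgeR adjusted p 1.04e-10). Pfkl rose 1.56-fold, from 81.5, 72.2 and 106 CPM to 144, 129.8 and 133 CPM (edgeR adjusted p 0.00039). Pfkm went the other way, from 7.46, 7.22 and 8.69 CPM to 3.94, 2.31 and 3.37 CPM, a fall of 2.42-fold without overlap (log2 fold change -1.28 ± 0.19, edgeR adjusted p 7.89e-06). Per length, Pfkp held 55.5% ± 1.51 of the subunit transcripts in isograft and 68.6% ± 1.49 in allograft libraries (SD, n = 3), Pfkl 37.6% ± 1.81 and 30.0% ± 1.17, and Pfkm 6.83% ± 0.418 and 1.42% ± 0.350.

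The bifunctional enzymes encoded by the Pfkfb genes set the level of fructose 2,6-bisphosphate, the strongest activator of phosphofructokinase. Pfkfb3, the inducible isoform with very high kinase activity, rose from 63.2, 57.6 and 78.8 CPM to 111.6, 109 and 101 CPM (1.61-fold, log2 fold change 0.69 ± 0.10, edgeR adjusted p 9.26e-06). Pfkfb2, the isoform known from heart, fell from 3.38, 2.96 and 3.89 CPM to 1.57, 2.41 and 1.67 CPM (1.81-fold, log2 fold change -0.85 ± 0.24, edgeR adjusted p 0.00418). Neither gene's groups overlapped. Another gene, Gm29427, overlaps 19.5% of the exon bases of Pfkfb2, and counting took no account of strand, so its value is uncertain. Pfkfb3 was 94.9% ± 0.192 of the pair per length in isograft and 98.2% ± 0.420 in allograft libraries.

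Aldolase cuts the 6-carbon sugar into a pair of 3-carbon ones. Aldoa, the muscle-type isoform found in most tissues, had the highest group mean per length of the 34 genes, 144 ± 23.0 CPM per kb in isograft and 205 ± 12.3 in allograft libraries (SD, n = 3). Pkm, at 127 ± 21.7 and 199.99 ± 12.9 CPM per kb, lay within that spread in both groups, and Ldha, at 197 ± 6.73, in the allograft group. Its libraries stood at 432, 347 and 478 CPM against 631, 559 and 599.5 CPM, a rise of 1.42-fold (log2 fold change 0.51 ± 0.10, edgeR adjusted p 0.000294). Aldoc, the brain-type isoform, was rare and lower in allograft libraries, at 2.27, 2.14 and 2.90 CPM against 1.601, 1.45 and 1.31 CPM. Its groups did not overlap (log2 fold change -0.74 ± 0.26, edgeR adjusted p 0.0183), but without isograft replicate 3 the adjusted p was 0.0891. Tpi1, triosephosphate isomerase, which interconverts the products of aldolase, gave 118, 79.2 and 141 CPM in isograft and 229, 203 and 219 CPM in allograft libraries. The isograft libraries were spread widely, with replicate 2 lowest, and every allograft library was above them (1.93-fold, log2 fold change 0.95 ± 0.21, edgeR adjusted p 0.0113). Leaving out isograft replicate 1 raised the adjusted p to 0.0557, leaving out allograft replicate 1 to 0.0753 and leaving out allograft replicate 3 to 0.0606, all past the threshold.

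**Figure D2:**
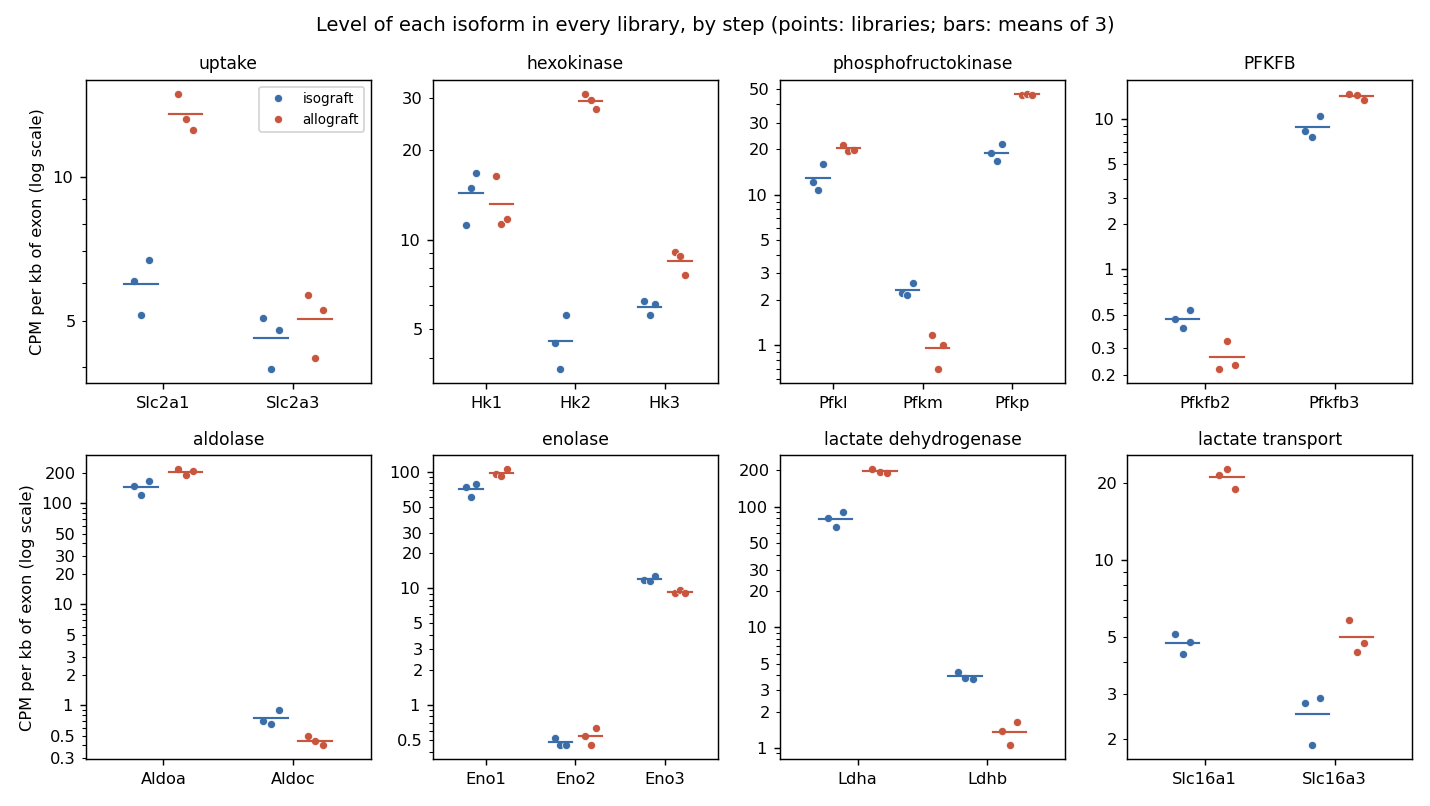
Level of each isoform in every library, in CPM per kb of exon on a log axis, in 8 panels by step; points are libraries and bars the means of 3. On this scale Hk2 passes Hk1 in the allograft libraries. Pfkm, Pfkfb2, Aldoc, Eno3 and Ldhb are lower there, while their sister isoforms Pfkp, Pfkfb3, Aldoa, Eno1 and Ldha are higher.

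Lower glycolysis, which yields the ATP and ends in pyruvate, had 5 of 7 genes that rose, 1 that fell and 1 not called. Among all genes tested 28.7% rose and 29.1% fell. Pgam1, the phosphoglycerate mutase of most tissues, gave 34.9, 34.5 and 46.0 CPM in isograft and 104.6, 91.8 and 94.3 CPM in allograft libraries, a rise of 2.52-fold with a wide gap between the groups (log2 fold change 1.33 ± 0.10, edgeR adjusted p 5.52e-09). Pgk1, phosphoglycerate kinase, rose 2.13-fold, from 95.95, 72.0 and 114 CPM to 209.8, 197 and 193 CPM (log2 fold change 1.09 ± 0.14, edgeR adjusted p 9.64e-05). Pkm, pyruvate kinase of muscle and most other tissues, rose 1.57-fold, from 601, 548 and 757 CPM to 1072, 983 and 946 CPM (log2 fold change 0.65 ± 0.10, edgeR adjusted p 4.18e-05). Its M1 and M2 forms are splice products of the same gene, and gene counts do not separate them.

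The 3 enolase genes each did something different. Eno1, the form of most tissues, stood at 396, 324 and 418 CPM in isograft and 508, 489 and 563 CPM in allograft libraries and rose 1.37-fold (log2 fold change 0.46 ± 0.09, edgeR adjusted p 0.000259). Eno3, the muscle form, fell from 20.7, 20.2 and 22.1 CPM to 15.9, 16.7 and 15.8 CPM, a small difference with tight libraries (1.30-fold, log2 fold change -0.38 ± 0.10, edgeR adjusted p 0.00302). Eno2, the neuronal form, was at 2.48, 2.14 and 2.15 CPM against 2.56, 2.14 and 2.98 CPM, with groups that overlap (log2 fold change 0.18 ± 0.23, edgeR adjusted p 0.521). Per length, Eno1 held 84.8% ± 1.30 of the step in isograft and 90.8% ± 0.738 in allograft libraries (SD, n = 3), and Eno3 14.6% ± 1.26 and 8.74% ± 0.789.

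Gapdh, glyceraldehyde 3-phosphate dehydrogenase and a common reference gene, was counted at 491, 563 and 468 reads in the isograft and 731, 819 and 825 reads in the allograft libraries. That is 14.8, 13.9 and 14.6 CPM against 23.4, 28.2 and 29.3 CPM, a rise of 1.87-fold without overlap (log2 fold change 0.90 ± 0.11, edgeR adjusted p 5.02e-07). Its isograft level of 3.49 ± 0.1203 CPM per kb (SD, n = 3) is far below that of its pathway neighbours. Tpi1 stood at 40.8 ± 11.3 and Pgk1 at 41.8 ± 9.32. The size of this gap depends on the exon lengths used, 4133 bases for Gapdh, 2753 for Tpi1 and 2244 for Pgk1. Their main transcripts have 1420, 1607 and 1825 bases, and with those the gap would be smaller. The recorded counting set no option for reads that map to several places, and by the tool's default such reads are left out. Of all stretches of 50 bases in the Gapdh transcript, 82.5% also occur in the transcript of another gene, mostly processed pseudogenes, which are old copies of the mRNA pasted into the genome. The coding sequence of Gapdh aligned to 149 other genes of the GENCODE M21 annotation at 90% identity or more over at least 50% of its length, and 143 of these are annotated as pseudogenes. Together they took 1100 to 1514 counts in isograft and 1774 to 2182 in allograft libraries, or 215% to 308% of Gapdh's own count.

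Most of those counts lay on Gm5559, a processed pseudogene on chromosome 5, with 802, 767 and 572 counts in isograft and 1210, 994 and 878 in allograft libraries. Its coding match to Gapdh is 99.9% identical. The stretches below, coding bases 499 to 558 of the GENCODE M21 transcripts, show a place where a read matches both genes alike; the copy differs from the gene at 0 of these bases. For Pgam1 the copy Pgam1-ps2, on chromosome 7, has the whole coding sequence at 100% identity, shown for coding bases 382 to 441.
Gapdh: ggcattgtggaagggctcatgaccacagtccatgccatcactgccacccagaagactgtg
Gm5559: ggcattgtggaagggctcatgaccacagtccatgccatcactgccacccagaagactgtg
Pgam1: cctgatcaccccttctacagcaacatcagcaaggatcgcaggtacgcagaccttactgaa
Pgam1-ps2: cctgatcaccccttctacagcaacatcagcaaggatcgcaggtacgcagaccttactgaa

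Copies of this kind are a matter of some genes only. In 13 of the 34 members more than 1% of the 50-base stretches of the main transcript occur in another gene, and in 18 members none do. After Gapdh, the shared part was largest for Eno1 (72.2%), Pgk1 (68.0%), Bnip3 (48.9%), Pgam1 (41.5%), Pkm (30.5%) and Ldhb (27.0%). The labels and files used here give no read length, so both 50 and 100 bases were tried. With stretches of 100 bases it was 78.1% for Gapdh, 67.0% for Pgk1, 59.0% for Eno1, 39.7% for Pgam1, 18.8% for Bnip3, 8.80% for Ldhb and 6.82% for Pkm. How many reads each of them lost was not measured, and their levels set against other genes are uncertain. Eno1b, a near copy of Eno1 annotated as coding, had 1160, 1247 and 976 counts in isograft and 1321, 1175 and 1529 in allograft libraries, and it and the other aligned copies came to 8.42% to 10.9% of Eno1's own count. In the remaining members with aligned copies these took under 5% of the gene's own count, and the 1 copy of Ldhb had none. Overlap with a neighbouring gene's exons, which unstranded counting cannot resolve, covered over 10% of exon bases in 7 members, among them Rpe (17.9%, Kansl1l), Pkm (15.3%, Gm49759) and Pfkm (10.8%, Gm26513).

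Adding the copies' counts to their members moved no call. These are reads already counted on the copies, and in most members they are few. Reads left out for mapping to several places are not among them, so their effect was not tested. With every aligned copy added, the log2 fold change was 0.80 for Gapdh (edgeR adjusted p 9.7e-08), 0.46 for Eno1 (0.000168), 1.10 for Pgk1 (0.000141) and 0.79 for Bnip3 (0.00654). Of the 13 members with shared stretches 9 rose and 2 fell, and of the 21 others 13 rose and 5 fell. The shares over all genes tested were 28.7% and 29.1%. The isoforms themselves are far enough apart to be told apart: coding sequences of the 11 isoform pairs compared below are 59.2% to 76.7% identical, and the longest run they share is 12 to 27 bases.

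**Figure D3:**
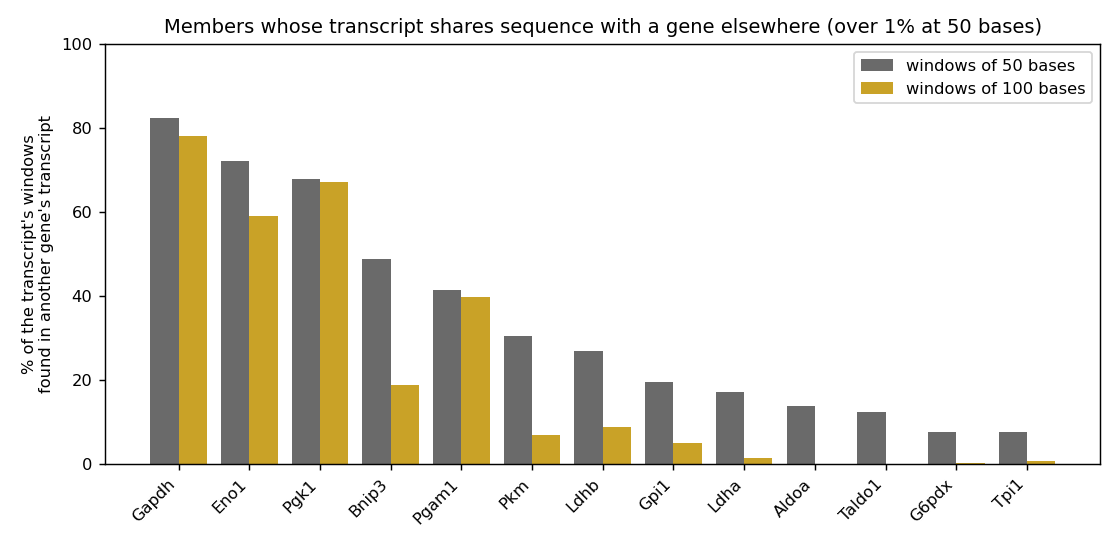
Percent of the stretches of 50 and 100 bases in each gene's main transcript that are also found in the transcript of a gene elsewhere, for the 13 genes above 1% at 50 bases. Gapdh, Eno1 and Pgk1 exceed 50% at both lengths, while Ldha, Aldoa and Tpi1 lose nearly all sharing at 100 bases.

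Of the 6 genes grouped under lactate and pyruvate handling, 4 rose and 2 fell, where 28.7% of all genes tested rose and 29.1% fell. Among the risers is Bnip3, a mitophagy receptor and not an enzyme or carrier of lactate or pyruvate. Slc16a1 encodes MCT1, a lactate transporter that works in both directions, and lies at chr3:104545984-104565778 of GRCm39. It rose from 22.8, 19.1 and 21.2 CPM in isograft to 94.5, 99.8 and 83.9 CPM in allograft libraries (4.41-fold, log2 fold change 2.14 ± 0.09, edgeR adjusted p 1.87e-13), the lowest p of the 34 genes. Slc16a3 encodes MCT4, the lactate exporter of strongly glycolytic cells. It rose less, from 14.7, 10.1 and 15.5 CPM to 31.1, 23.2 and 25.3 CPM (1.98-fold, log2 fold change 0.99 ± 0.15, edgeR adjusted p 4.86e-05), and its share of the pair per length went from 34.4% ± 3.60 to 19.3% ± 2.72 (SD, n = 3).

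Lactate dehydrogenase is a tetramer of A subunits, which favour making lactate, and B subunits, which favour using it. Ldha (chr7:46490899-46505051) rose from 265, 226 and 298 CPM to 676, 645 and 633 CPM, with every allograft library at more than the highest isograft library (2.48-fold, log2 fold change 1.31 ± 0.09, edgeR adjusted p 2.65e-10). Ldhb (chr6:142435975-142453683) fell from 6.74, 5.96 and 5.89 CPM to 2.18, 1.65 and 2.59 CPM (2.89-fold, log2 fold change -1.53 ± 0.20, edgeR adjusted p 1.52e-06). Ldhb was thus scarce in both groups, at 4.79% ± 0.691 of the pair per length in isograft and 0.690% ± 0.160 in allograft libraries. The stretch of coding bases 499 to 558 shows how a read tells these genes apart: capitals mark bases that differ from Ldha. Ldhb differs at 17 of the bases and Gm5452, a processed pseudogene of Ldha on chromosome 13, at 2.
Ldha: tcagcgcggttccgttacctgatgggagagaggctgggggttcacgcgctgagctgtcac
Gm5452: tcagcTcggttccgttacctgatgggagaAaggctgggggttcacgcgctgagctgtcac
Ldhb: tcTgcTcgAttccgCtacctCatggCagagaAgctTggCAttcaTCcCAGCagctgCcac

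Pdk1, pyruvate dehydrogenase kinase, which switches off the entry of pyruvate into the citric acid cycle, fell against the trend of its neighbours. It gave 153, 143 and 159 CPM in isograft and 75.6, 69.6 and 88.1 CPM in allograft libraries, with a clear gap between the groups (1.95-fold, log2 fold change -0.96 ± 0.08, edgeR adjusted p 7.45e-09). Bnip3, a mitochondrial receptor for mitophagy and a known hypoxia target, rose from 24.8, 16.1 and 28.3 CPM to 38.1, 38.5 and 43.9 CPM (1.74-fold, log2 fold change 0.80 ± 0.18, edgeR adjusted p 0.00398). Besides its copies, 22.3% of the exon bases of Bnip3 are overlapped by Gm45507, so its level is uncertain.

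The pentose phosphate genes moved less: 5 of 7 rose, 1 fell, 1 was not called, and none changed 2-fold. Among all genes tested 28.7% rose, 29.1% fell, and 10.1% changed at least 2-fold in each direction. In the oxidative arm, G6pdx, the dehydrogenase that commits glucose 6-phosphate to the pathway, had libraries of 33.4, 32.8 and 29.9 CPM in isograft and 34.8, 35.5 and 37.2 CPM in allograft. The groups do not overlap but the difference was not called (log2 fold change 0.16 ± 0.09, edgeR adjusted p 0.116). The next enzymes both rose: Pgls, the lactonase, from 23.8, 25.3 and 24.2 to 33.7, 35.1 and 34.5 CPM (1.41-fold, edgeR adjusted p 5.69e-05), and Pgd, which releases the second NADPH and CO2, from 54.8, 62.4 and 62.5 to 93.99, 84.0 and 78.9 CPM (1.43-fold, edgeR adjusted p 2.38e-05). Pgls has 20.6% of its exon bases overlapped by Fam129c and G6pdx 13.6% by Ikbkg.

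The non-oxidative arm, which shuffles sugars between ribose and glycolysis, split. Tkt, transketolase, rose the most of the 7, from 65.3, 75.7 and 69.9 CPM to 143, 130.5 and 115.5 CPM (1.84-fold, log2 fold change 0.88 ± 0.08, edgeR adjusted p 2.8e-08). Taldo1, transaldolase, its partner in that arm, fell from 77.4, 70.4 and 73.3 CPM to 56.5, 49.3 and 60.6 CPM (1.33-fold, log2 fold change -0.41 ± 0.08, edgeR adjusted p 0.000287). Both genes' groups were apart, on opposite sides. Rpia, which makes ribose 5-phosphate, gave 43.4, 48.8 and 49.6 CPM against 70.8, 57.7 and 55.0 CPM, and Rpe, which makes xylulose 5-phosphate, 17.1, 15.1 and 16.2 CPM against 19.4, 21.3 and 21.8 CPM. Each rose 1.29-fold (edgeR adjusted p 0.00215 and 0.00452), but with libraries scaled by their totals alone neither was called (adjusted p 0.154 for Rpia and 0.247 for Rpe).

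The balance of isoforms within a step was also computed in each library as a log2 ratio, which depends little on how libraries are scaled. Of 11 pairs, 10 had isograft and allograft libraries that did not overlap, where single genes did not overlap in 63.3% of cases; no such share was computed for ratios of other gene pairs, and the count is a description. Hk2 over Hk1 went from -2.14 ± 0.35 (SD, n = 3) to 0.66 ± 0.23, a change of 2.80, and Ldha over Ldhb from 5.29 ± 0.22 to 7.96 ± 0.27, a change of 2.67. Pfkm over Pfkl went from -3.38 ± 0.15 to -5.22 ± 0.28, and Pfkfb3 over Pfkfb2 from 4.09 ± 0.07 to 5.51 ± 0.27. These ratios are of CPM and not per length, so their change, not their sign, compares the isoforms. By the shares per exon length, hexokinase was the only step where the order of the isoforms differed between the group means. Other lengths could change which steps differ. Slc2a3, for example, has 7245 exon bases but a main transcript of 3959, and Slc2a1 has 3506 and 3260. The ratio of Slc16a3 to Slc16a1 changed by -1.14, that of Aldoc to Aldoa by -1.10, that of Slc2a1 to Slc2a3 by 1.05, that of Eno3 to Eno1 by -0.83, that of Pfkp to Pfkl by 0.63 and that of Eno2 to Eno1 by -0.32. Only Hk3 over Hk1 overlapped, with a difference of 0.62. Each of the 10 gave 0.10 in a two-sided exact permutation test, the smallest p that 3 against 3 libraries allow (0.11 adjusted over the 11 pairs by Benjamini-Hochberg).

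**Figure D4:**
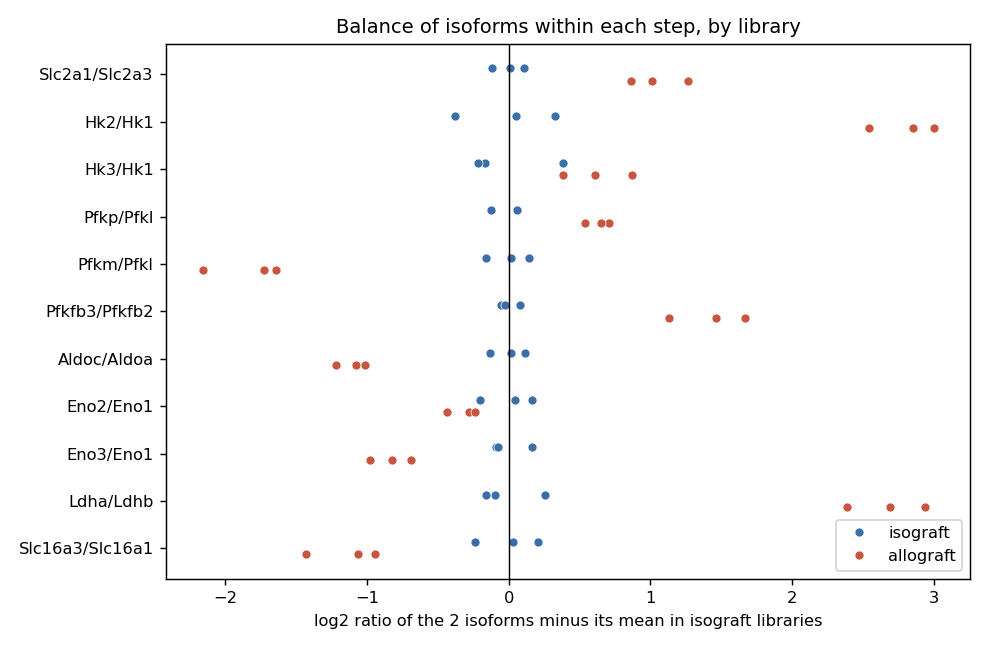
Log2 ratio of 2 isoforms of a step in each library, minus its mean in the isograft libraries, so that isograft points scatter around 0. Hk2/Hk1 and Ldha/Ldhb have allograft points beyond 2, Pfkm/Pfkl has all 3 below -1.5, and Hk3/Hk1 is the pair whose groups touch.

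The isoforms among the 34 genes were also summed per length by step. All 8 steps with several such isoforms were higher in every allograft library than in any isograft library. No background share was computed for such sums. Isoforms outside the 34 genes were left out. Among these, Pfkfb4 fell 1.83-fold, from 2.21 to 1.21 CPM per kb (edgeR adjusted p 6.95e-05), and Slc2a6 rose, from 2.93 to 8.04 CPM per kb. The rise of the sum ran from 1.28-fold for enolase and 1.42-fold for aldolase to 2.38-fold for lactate dehydrogenase and 3.57-fold for lactate transport. Hexokinase rose 2.05-fold in sum (24.8 ± 3.28 to 50.9 ± 4.92 CPM per kb, SD, n = 3) while Hk1 itself was not called. The exact permutation p was 0.10 for each step, the smallest possible here. Within the isograft group, replicate 2 had the lowest value for 18 of the 22 genes that rose, and replicate 3 the highest for 16.

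Other isoforms and relatives of the 34 genes, not all of them acting at the same steps, were a mixed group. Of 30 such genes 14 had enough counts to be tested, of which 3 rose and 7 fell, where 28.7% of all genes rose and 29.1% fell. Their median on the log2 scale was -0.50, and the list was not tested against the 34 genes. Slc2a6, a hexose transporter of inner membranes, rose 2.74-fold, from 9.41 ± 1.19 to 25.8 ± 1.15 CPM (edgeR adjusted p 1.28e-09). Slc16a6 rose 1.27-fold (adjusted p 0.00474), a call lost with total counts (adjusted p 0.308). Pdk3 was called as rising with overlapping groups (adjusted p 0.0248), and not called with the replicate number as a block (0.0589), with total counts (0.433), or without isograft replicate 1 (0.0888), isograft replicate 2 (0.0778), allograft replicate 1 (0.199) or allograft replicate 2 (0.0530). Pdk2, a second pyruvate dehydrogenase kinase, fell 3.88-fold, from 5.51 ± 0.643 to 1.41 ± 0.363 CPM, H6pd, the glucose 6-phosphate dehydrogenase of the endoplasmic reticulum, fell 3.33-fold, and Slc2a9 fell 2.34-fold (adjusted p 2.79e-07, 5.56e-08 and 2.24e-05). Bnip3l, the relative of Bnip3, fell 1.54-fold, from 98.3 ± 2.44 to 64.0 ± 2.64 CPM (adjusted p 3.57e-07).

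Genes that branch off glycolysis were split evenly, where 28.7% of all genes tested rose and 29.1% fell. Of 31 branch genes tested, 11 rose and 11 fell, with a median of -0.06. Without allograft replicate 1, or with total counts, 7 rose. Nampt, which makes NAD again from nicotinamide, rose 2.33-fold, from 168 ± 7.83 to 391 ± 31.9 CPM (edgeR adjusted p 4.51e-11). Tigar, a phosphatase that lowers fructose 2,6-bisphosphate, rose 1.97-fold and Galk1, galactokinase, 1.96-fold (adjusted p 2.19e-07 and 0.00156). Khk, fructokinase, fell 3.58-fold, from 21.7 ± 0.874 to 6.08 ± 2.02 CPM, Gpd1l fell 2.37-fold and Bpgm, which makes 2,3-bisphosphoglycerate, 2.15-fold (adjusted p 1.76e-07, 2.63e-09 and 2.64e-07).

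Of 16 genes for pyruvate entry into the mitochondria and the malate-aspartate shuttle, 5 rose and 3 fell. Their median was 0.17, and none changed 2-fold. Of all genes tested, 28.7% rose and 29.1% fell, and 10.1% changed at least 2-fold in each direction. Got1, Dld and Dlat rose 1.61-fold, 1.40-fold and 1.39-fold (edgeR adjusted p 4.18e-07, 2.03e-05 and 0.00152), and Dlat was not called with total counts (adjusted p 0.0585). Pdpr fell 1.71-fold, Mdh1, the cytosolic malate dehydrogenase, 1.55-fold and Slc25a11 1.52-fold (adjusted p 0.000123, 4.72e-06 and 2.21e-06). Mpc1, a subunit of the mitochondrial pyruvate carrier, averaged 8.14 ± 0.276 CPM in the isograft and 7.27 ± 0.820 CPM in the allograft group and was not called (adjusted p 0.327), but with total counts it was called as falling (log2 fold change -0.38, adjusted p 0.0246).

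HIF-1 is the transcription factor that responds to low oxygen and to T cell activation, and many glycolytic genes are among its known targets. Of 24 tested HIF-1 regulators and targets outside the 34 genes, 15 rose, 11 of them at least 2-fold, and 4 fell, with a median of 0.78. Of all genes tested, 28.7% rose, 10.1% rose at least 2-fold, and 29.1% fell. With total counts, 7 genes of the HIF-1 list fell. Hif1a itself, at 225, 219 and 207 CPM in isograft and 328, 362 and 346 CPM in allograft libraries, rose 1.59-fold without overlap (edgeR adjusted p 8.48e-08). Adm, adrenomedullin, rose 11.1-fold from 1.30 ± 0.311 to 14.7 ± 2.02 CPM, Ak4, an adenylate kinase of mitochondria, 6.28-fold, and Vegfa, the vascular growth factor, 4.97-fold from 52.2 ± 6.96 to 259 ± 4.80 CPM (adjusted p 4.24e-12, 9.38e-10 and 5.38e-14). Epas1, which encodes HIF-2 alpha, fell 4.46-fold, and Arnt, the common partner subunit, fell 1.48-fold (adjusted p 5.3e-10 and 5.23e-06). Mxi1, a MYC antagonist, fell 1.67-fold (adjusted p 9.47e-07). Among the 34 genes, Pdk1, also a known HIF-1 target, lay on the falling side, at -0.96 beside 1.31 for Ldha and 2.68 for Hk2.

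The proximal promoters were searched for the letters that HIF-1 is known to need, ACGTG or GCGTG on either strand, in the 250 bases before the start (RefSeq, GRCm38.p6, the first start listed per gene). A match was held by 26 of the 33 members whose promoter was listed (78.8%), against 55.9% of 10024 tested genes and 38.6% of all 27025 genes there. A match was held by 18 of the 22 members that rose and by 7 of the 7 that fell. Both cores contain the letters CG, and member promoters held from 0 CG pairs (Aldoa) to 37 (Slc16a1). The genes compared were not matched for CG content, and its part in these shares was not tested. ACGTG alone was in 10 of the 22 that rose (45.5%) and 2 of the 7 that fell (28.6%), against 21.8% of the tested genes; with so few genes the difference by direction was not tested. The E-box CACGTG, a MYC site whose letters contain ACGTG on both strands, was in 5 of 33 (15.2%), against 8.30% of the tested genes. By direction it was in 3 of the 22 that rose (13.6%) and 2 of the 7 that fell (28.6%), also not tested. The promoters below belong to the 3 risers that the account turns on and to Pdk1, which fell; capitals mark the matches on either strand. They are Hk2 (chr6:82774455-82774704, minus strand), Ldha (chr7:46845554-46845803, plus), Slc16a1 (chr3:104638414-104638663, plus) and Pdk1 (chr2:71872974-71873223, plus).
Hk2: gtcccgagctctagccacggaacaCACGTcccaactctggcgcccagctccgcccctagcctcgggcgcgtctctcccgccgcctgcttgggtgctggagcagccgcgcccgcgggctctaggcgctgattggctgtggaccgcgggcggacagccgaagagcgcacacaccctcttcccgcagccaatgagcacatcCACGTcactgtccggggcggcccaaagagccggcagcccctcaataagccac
Ldha: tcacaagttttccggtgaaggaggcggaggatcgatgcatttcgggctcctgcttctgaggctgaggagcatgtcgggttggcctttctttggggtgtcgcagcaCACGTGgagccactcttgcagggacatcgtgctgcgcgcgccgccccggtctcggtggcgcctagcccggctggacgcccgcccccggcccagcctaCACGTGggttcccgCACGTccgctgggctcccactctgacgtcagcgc
Slc16a1: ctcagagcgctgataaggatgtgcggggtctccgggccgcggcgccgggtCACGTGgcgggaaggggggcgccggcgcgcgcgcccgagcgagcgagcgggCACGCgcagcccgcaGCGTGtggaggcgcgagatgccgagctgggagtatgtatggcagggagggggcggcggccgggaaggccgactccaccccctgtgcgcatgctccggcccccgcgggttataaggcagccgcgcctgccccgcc
Pdk1: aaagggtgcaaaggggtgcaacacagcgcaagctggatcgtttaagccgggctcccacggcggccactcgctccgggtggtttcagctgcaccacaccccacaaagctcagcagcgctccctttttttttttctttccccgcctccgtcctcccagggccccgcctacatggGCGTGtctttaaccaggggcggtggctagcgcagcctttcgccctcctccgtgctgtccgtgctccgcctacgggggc

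Counted on each strand, Ldha has 5 core matches, Slc16a1 4, Hk2 2 and Pdk1 1. These genes were picked by their results, and other members differ. Of the others that fell, Pfkfb2 has 4, Pfkm 2, and Aldoc, Eno3, Ldhb and Taldo1 1 each. The risers Pkm, Tpi1, Aldoa and Rpe have 0. An E-box counts on both strands, so the 2 E-boxes of Ldha and the 1 of Slc16a1 each stand for a pair of matches. A match is a description of the letters and not a bound site.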

How the data were processed

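RNA was sequenced from 3 isograft and 3 allograft libraries. Per the file headers, the authors counted read pairs over exons with featureCounts 1.6.0 without a strand option. The deposited values are raw counts per gene, against Ensembl release 104 (GRCm39) in the headers, whereas GRCm38 and mm10 stand in the submitters' processing notes. For 52083 of 55416 genes (93.99%) a symbol was found by Ensembl ID. Genes were kept by filterByExpr, which left 14926 with 99.92% of the counts, scaled by TMM and tested with edgeR 4.0.16 (quasi-likelihood, robust, Benjamini-Hochberg, threshold 0.05) in R 4.3.3. On simulated data, where 14726 of 14926 genes were unchanged, the fit called 84% of genes changed 2-fold and 0.122% of unchanged ones. In the real data 57.8% of genes were called, so these rates may not carry over. Isoform ratios used CPM with a prior of 0.5 and the exact permutation test. Copies were sought with BLAST+ 2.17.0 in GENCODE M21 transcripts, keeping genes at 90% identity over 50% of the coding bases. A main transcript's 50-base and 100-base windows were looked up in transcripts of genes elsewhere.

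The members and lists were chosen with earlier results of these data known. Named genes are all members, plus Hif1a, Tigar, Mpc1 and Bnip3l. From each pathway list come the 3 largest rises and falls among called genes that reached 5 CPM in either group's mean. Zbtb46 and Pfkfb4 were named after their values were seen. Replicates differed beyond sampling noise (chi-square per degree of freedom 9.58 to 20.0). DESeq2 1.42.0, limma-voom 3.58.1, other scalings and filters, a replicate block, leaving out each library and adding copies were alternatives.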

Additional observations from a re-analysis of the deposited data

How the results depend on the processing

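The calls of all 34 members and their directions were the same with RLE size factors, DESeq2, limma-voom, no filter on low counts, non-robust estimation, and counts of named or of aligned copies added (the last chosen after seeing the data). The same held for the 31 members that pass a filter of 5 CPM in 3 libraries. Total counts without scaling factors lost 2 of 34, and gave 1 rising gene among the other isoforms and relatives. They also gave 7 branch genes that rose, 3 pyruvate entry genes that rose and 5 that fell, and 7 HIF-1 genes that fell. Leaving out 1 library at a time left 21 to 22 members that rose, 6 to 7 that fell, and 7 to 10 branch genes that rose. The labels do not say whether the replicate numbers pair the samples. Correlations of same-numbered deviations were -0.063, 0.0029 and -0.034, but 3 libraries a group are too few to exclude a pairing. With the replicate block 22 members rose and 7 fell, as without it, and 8 branch genes rose. With a prior of 2 CPM the isoform ratios changed by -1.57 for Pfkm/Pfkl, 1.16 for Pfkfb3/Pfkfb2, -0.88 for Aldoc/Aldoa and 2.30 for Ldha/Ldhb, nearer to 0 because the larger prior weighs more on the rare isoform. Genes under 5 CPM such as Pfkfb2, Aldoc and Eno2 rest on few counts, and the depth limits what can be said of them.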
